A study of Mus musculus with 9 samples.

Results

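Expression of 10 ion channel genes was followed in whole pancreas of mouse embryos: Cacna1i, Cacna1g, Cacna1h, Cacna1a, Cacna1b, Cacna1c, Cacna1d, Cacna1e, Abcc8 and Kcnj11. They comprise 8 genes for pore-forming subunits of voltage-gated calcium channels and 2 genes for the subunits of the ATP-sensitive potassium (KATP) channel. These are 10 of 55453 gene symbols in the count files, and all 10 were among the 19166 genes tested. The set was chosen by channel family, with the low level of Cacna1i in the mutant-labelled libraries already known. The values of Cacna1i against Pdx1:Cre libraries are therefore given as a description, without a test, and Cacna1i is left out of counts in those comparisons.

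Bulk RNA-seq was made from pancreas dissected from e18.5 embryos, shortly before birth, with 3 libraries in each of 3 groups, all on a mixed C57BL6 strain. The groups were labelled Pdx1:Cre;Grg3Grg4, Pdx1:Cre;Grg3 and Pdx1:Cre. They are called Grg3Grg4, Grg3 and Cre here, and every embryo, controls included, carried Pdx1:Cre. In Pdx1:Cre the promoter of Pdx1, a transcription factor of the pancreatic epithelium, expresses the Cre recombinase, so recombination is directed to that epithelium and not to mesenchyme, nerves or vessels. Grg3 and Grg4 are Groucho co-repressors encoded by Tle3 and Tle4. The labels give neither the alleles nor the zygosity, nor whether a library came from 1 embryo or a pool. If replicates were not separate embryos, the p-values measure only the spread between these libraries.

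In a beta cell, ATP made from glucose closes the KATP channel, which consists of a pore (Kir6.2, from Kcnj11) and a regulatory sulfonylurea receptor (SUR1, from Abcc8). Closure depolarises the membrane, voltage-gated calcium channels open, and the entering calcium triggers fusion of insulin granules. L-type channels (Cacna1c, Cacna1d) and P/Q-, N- and R-type channels (Cacna1a, Cacna1b, Cacna1e) open at high voltage, whereas T-type channels (Cacna1g, Cacna1h, Cacna1i) open near the resting potential.

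The labels were first set against the targeted genes. Values are CPM, gene counts per 1000000 counts of the library after scaling between libraries by TMM, the trimmed mean of M values. Tle3 averaged 135 ± 10.4 CPM in Grg3Grg4, 153 ± 12.1 in Grg3 and 64.8 ± 2.5 in Cre (SD, n = 3 each). Tle3 was thus higher in the libraries labelled as its mutants, by log2 1.05 ± 0.09 in Grg3Grg4 (adjusted p = 0.000557) and 1.24 ± 0.09 in Grg3 (SE; edgeR adjusted p = 0.00027). Tle4 averaged 11.6 ± 3.52, 12.2 ± 2.10 and 7.77 ± 0.09 CPM in the same order (edgeR adjusted p = 0.155 and 0.132 over Cre). The files count reads over whole genes, so loss of single exons cannot be seen in them. The groups are therefore referred to as libraries labelled Grg3Grg4 or Grg3, and every direction below rests on those labels.

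Gene counts summed to 46817453 to 62744499 per library. Embryo sex was taken as male where Y-linked genes together had more counts than Xist, which gives 1 sex even to a mixed pool. It was male in 3 of 3 Grg3Grg4, 1 of 3 Grg3 and 1 of 3 Cre libraries (replicate 1 of each of the last 2 groups). Grg3Grg4 replicate 2 stood apart in skeletal and cardiac muscle genes, led by Acta1 and Myh8. Their summed level was 10.8 to 2512 CPM in Grg3Grg4, 17.1 to 50.3 in Grg3 and 4.24 to 10.1 in Cre. Acinar genes, led by Ctrb1 and Pnliprp1, held 201432 to 228120 CPM in Grg3Grg4, 162453 to 311499 in Grg3 and 291215 to 331782 in Cre, as the label pancreas implies. None of 8 acinar or 9 skeletal and cardiac muscle genes was called in any comparison by edgeR at an adjusted p under 0.05, the threshold used throughout.

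The sequences below show what separates the T-type genes in reads and what lies before the start sites of the members farthest from Cre. The longest run shared letter for letter by the longest coding transcripts of Cacna1i and Cacna1g was 68 bases long. It lies within coding exons, and its best match in Cacna1h had 4 mismatches, printed in capitals. All 3 are written 5′ to 3′ on the coding strand (GRCm38, GENCODE M21).
Cacna1i exon 12, chr15:80369688-80369755, plus strand: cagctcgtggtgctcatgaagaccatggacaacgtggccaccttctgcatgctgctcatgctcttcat
Cacna1g exon 11, chr11:94443187-94443254, minus strand: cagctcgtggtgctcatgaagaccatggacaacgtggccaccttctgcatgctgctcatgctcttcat
Cacna1h exon 12, chr17:25388574-25388641, minus strand: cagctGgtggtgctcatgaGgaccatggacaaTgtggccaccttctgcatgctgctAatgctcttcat
Beyond this run the 3 genes were well separated. Of the 50-base words of the Cacna1i transcript, 0.206% also occurred in a transcript of another gene, namely Cacna1g or Cacna1h. The share was 0.228% for Cacna1g (with Cacna1i) and 1.34% for Cacna1h (with Cacna1i and Tpsg1). Shared words made up 1.68% of Cacna1a, with the antisense gene Gm16183, and 6.23% of Cacna1d, with Chdh. They made up 0.01% of Cacna1b and were not found in Cacna1c, Cacna1e, Abcc8 or Kcnj11. Whether counting used strand was not stated in the sources used here, so reads over the exon bases that Cacna1h shares with Tpsg1 (158), Cacna1a with Gm16183 (435) and Cacna1d with Chdh (589) cannot be assigned with certainty.

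Upstream windows of 250 bases from RefSeq (GRCm38.p6) were at hand for 5 of the 10 members, with 8 windows in all. Those of Cacna1i and Cacna1e are shown because these 2 members lay farthest below and farthest above Cre.
Cacna1i, chr15:80286988-80287237, plus strand: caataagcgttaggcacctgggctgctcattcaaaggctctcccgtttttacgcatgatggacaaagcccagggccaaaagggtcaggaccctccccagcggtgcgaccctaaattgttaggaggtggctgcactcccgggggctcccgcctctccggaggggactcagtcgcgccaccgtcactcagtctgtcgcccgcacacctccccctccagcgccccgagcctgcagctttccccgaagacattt
Cacna1e, chr1:154725921-154726170, minus strand: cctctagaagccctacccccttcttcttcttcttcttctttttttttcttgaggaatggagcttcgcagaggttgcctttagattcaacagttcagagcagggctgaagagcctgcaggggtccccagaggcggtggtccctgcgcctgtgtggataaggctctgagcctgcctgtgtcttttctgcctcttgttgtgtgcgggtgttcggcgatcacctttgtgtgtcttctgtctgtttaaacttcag
The Cacna1i window had 62.4% GC and 16 CpG dinucleotides, and the Cacna1e window 52.0% GC and 6 CpG, against a median of 52.4% GC over 32851 mouse windows. The Cacna1e window precedes a RefSeq start that lies inside the GENCODE gene, at 154390731 to 154884501 on the minus strand. The 4 motifs below were searched on both strands. TGTTTAC, the core bound by forkhead factors, occurs in 3.17% of all windows, CAGATG, an E-box of the Neurod1 type, in 14.4%, AAGTG, the NK2 core, in 40.7%, and TATAAA in 12.4%. None of these 4 runs of letters is in either printed window. Among the other members' windows, CAGATG was in 2 of the 3 Cacna1c windows and TATAAA in 1 of the 2 Cacna1d windows.

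Cacna1i encodes Cav3.3, a T-type pore best known from neurons. It lies on chromosome 15 at 80287238 to 80398279, on the plus strand. It had 5.55, 4.56 and 5.37 CPM in Grg3Grg4 libraries, 4.81, 3.34 and 4.24 CPM in Grg3 libraries, and 17.6, 15.5 and 29.4 CPM in Cre libraries. All 6 mutant-labelled libraries were below all 3 Cre libraries, and Cre replicate 3 was well above the other two. These values rest on 263 to 310, 209 to 263 and 742 to 1334 reads per library in the same order of groups. The fitted difference from Cre was log2 -2.01 ± 0.24 in Grg3Grg4, 4.04-fold lower, and -2.34 ± 0.24 in Grg3, 5.05-fold lower (SE). The difference lay between -2.19 and -1.68 in Grg3Grg4 and between -2.51 and -2.01 in Grg3 over 18 other settings each, including each library left out. Within male libraries, Cacna1i had 4.56 to 5.55 CPM in Grg3Grg4, 4.81 in Grg3 and 17.6 in Cre. Within female libraries it had 3.34 and 4.24 CPM in Grg3, against 15.5 and 29.4 in Cre. The ranges over settings and the values by sex reuse the libraries in which the low level of Cacna1i was first seen. They describe its level and are not separate support for it.

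The comparison that did not choose this gene is between the mutant-labelled groups, although it uses the same libraries in which its low level was seen. Cacna1i averaged 5.16 ± 0.53 CPM in Grg3Grg4 and 4.13 ± 0.74 CPM in Grg3 (SD, n = 3 each), and the libraries overlapped. The difference of log2 0.32 ± 0.24 did not pass edgeR's test (adjusted p = 0.512). A p above the threshold does not show that the groups are alike.

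**Figure D1:**
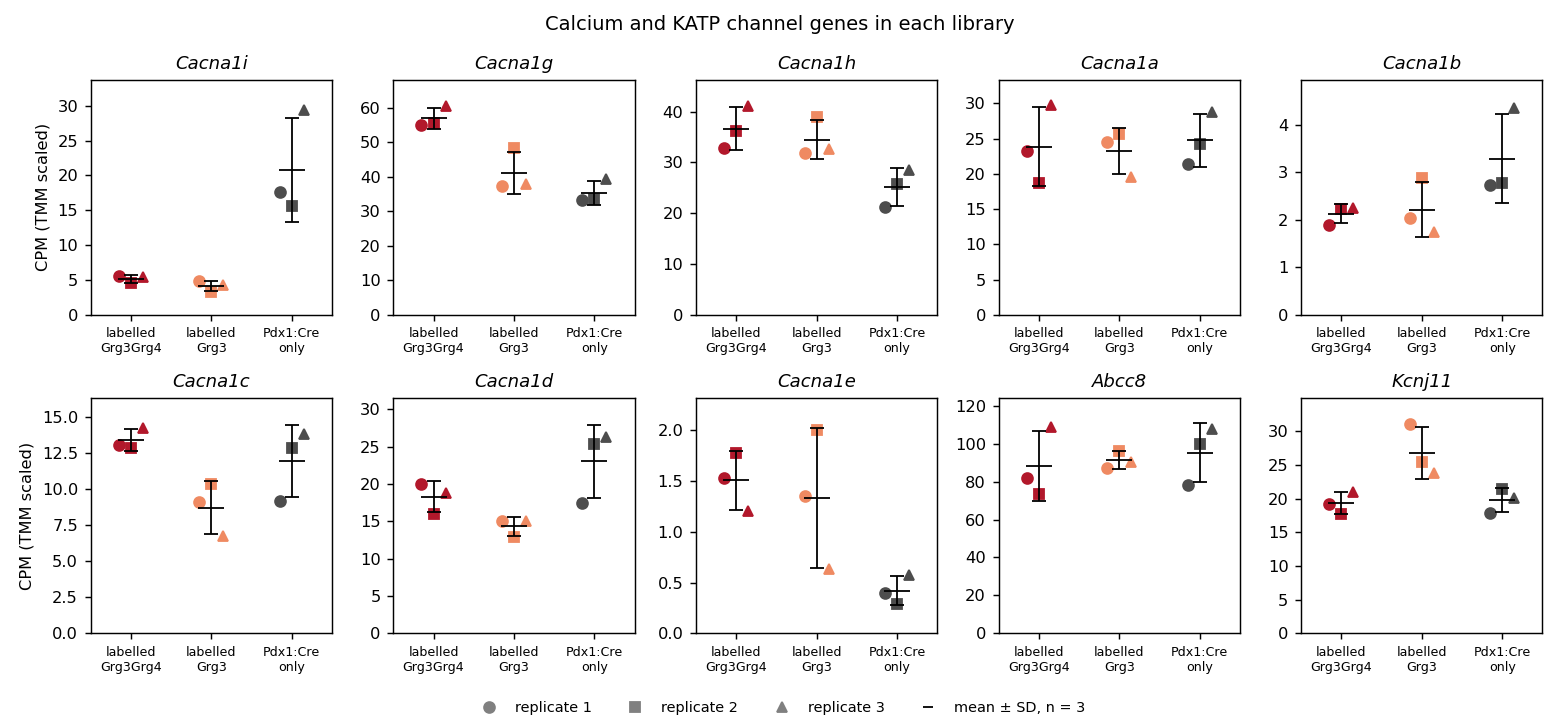
CPM after TMM scaling (vertical axes, each from 0) of the 10 channel genes in each library, by label (horizontal axes). Points are libraries, with 1 shape for each replicate number, and bars are mean ± SD, n = 3; Cacna1i lies at 3.34 to 5.55 CPM in mutant-labelled libraries and at 15.5 to 29.4 CPM in Cre.

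Cacna1g, for the T-type pore Cav3.1, was the 1 of 9 other members called against Cre. It lies on chromosome 11 at 94408391 to 94474198. Its values were 54.9, 55.5 and 60.5 CPM in Grg3Grg4, 37.3, 48.2 and 37.8 CPM in Grg3, and 33.2, 33.5 and 39.4 CPM in Cre. Every Grg3Grg4 library was above every library of the other groups, whereas Grg3 and Cre overlapped. Cacna1g rose in Grg3Grg4 over Cre by log2 0.69 ± 0.11, or 1.61-fold (SE; edgeR adjusted p = 0.0195), higher in 3 of 3 libraries. The difference of Grg3 from Cre was 0.22 ± 0.11 (adjusted p = 0.332) and that of Grg3Grg4 from Grg3 was 0.47 ± 0.11 (adjusted p = 0.109), called without Grg3 replicate 2 (log2 0.60, adjusted p = 0.0466) and by the Wald test of DESeq2 (0.0101). The call was lost without Cre replicate 1 (adjusted p = 0.0787), 2 (0.123) or 3 (0.0556) and with embryo sex as a term (0.068), at log2 differences of 0.64 to 0.80. In male libraries alone Cacna1g had 54.9 to 60.5 CPM in Grg3Grg4, 37.3 in Grg3 and 33.2 in Cre.

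Cacna1h, for the T-type pore Cav3.2, had 32.7, 36.1 and 41.1 CPM in Grg3Grg4, 31.9, 38.9 and 32.7 CPM in Grg3, and 21.2, 25.7 and 28.5 CPM in Cre. Both mutant-labelled groups lay above Cre without overlap and overlapped each other. The differences from Cre were log2 0.54 ± 0.13 in Grg3Grg4 (adjusted p = 0.0636) and 0.46 ± 0.13 in Grg3 (adjusted p = 0.108), neither called by edgeR. The Grg3Grg4 difference was called without Grg3 replicate 2 (edgeR adjusted p = 0.0439), with no filter (0.0211), by voom (0.0321) and by the Wald test (0.00573), and the Grg3 difference by the Wald test (0.0309). Between the mutant-labelled groups it was 0.09 ± 0.13 (edgeR adjusted p = 0.768).

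The 3 T-type genes differed in their share of the summed T-type level. To compare genes, CPM was divided by the length of the union of each gene's annotated exons in kilobases (kb). The T-type sum was 9.90 ± 0.73 CPM per kb in Grg3Grg4, 8.01 ± 0.93 in Grg3 and 8.18 ± 1.40 in Cre (SD, n = 3 each). Grg3Grg4 libraries lay above Grg3 libraries, and Cre overlapped both. Cacna1i gave 5.30% ± 0.65 of that sum in Grg3Grg4, 5.33% ± 1.45 in Grg3 and 25.3% ± 4.75 in Cre. Cacna1g gave 56.9% ± 1.18, 50.5% ± 1.66 and 43.0% ± 2.90, and Cacna1h 37.8% ± 1.72, 44.1% ± 0.41 and 31.6% ± 2.91, in that order of groups. Without Cacna1i the sum was 9.38 ± 0.72 CPM per kb in Grg3Grg4, 7.59 ± 1.0 in Grg3 and 6.07 ± 0.69 in Cre. These shares include the gene that the set was selected on and are not tested.

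**Figure D2:**
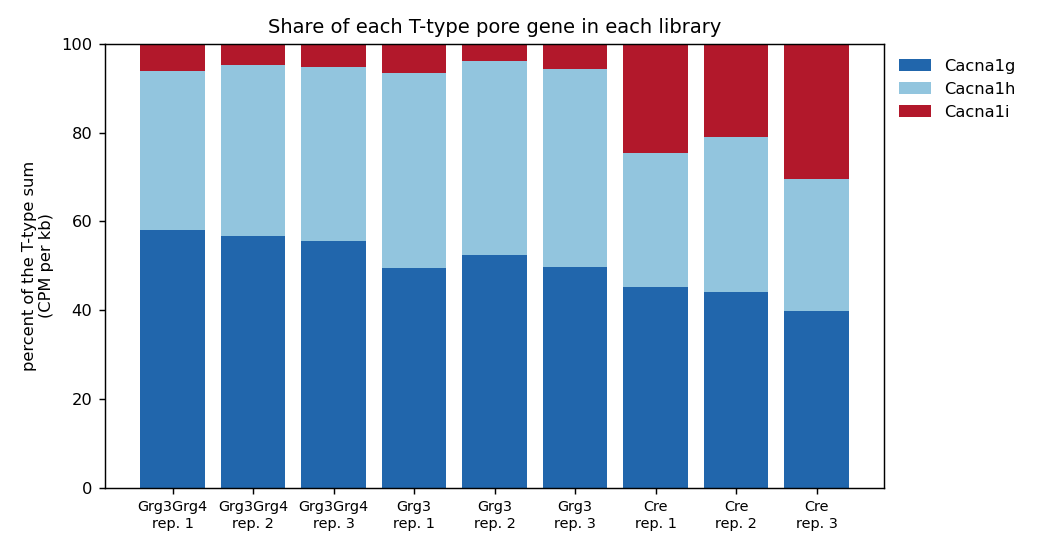
Share of Cacna1g, Cacna1h and Cacna1i in the summed T-type level (vertical axis, percent of CPM per kb) in each library (horizontal axis). Cacna1i takes 3.73% to 6.56% in the 6 mutant-labelled libraries and 20.97% to 30.4% in the 3 Cre libraries.

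The L-type pores Cav1.2 (Cacna1c) and Cav1.3 (Cacna1d) carry much of the calcium current of rodent beta cells. Cacna1d had 20.1, 16.0 and 18.8 CPM in Grg3Grg4, 15.1, 12.8 and 15.1 CPM in Grg3, and 17.5, 25.3 and 26.3 CPM in Cre. Grg3 libraries lay below all others, and Grg3Grg4 overlapped Cre. The difference of Grg3 from Cre, log2 -0.68 ± 0.16, was not called (adjusted p = 0.0676), but was called without Cre replicate 1 (-0.85, edgeR adjusted p = 0.0279), with no filter (0.021) and by the Wald test of DESeq2 (0.00297). The differences of Grg3Grg4 were -0.33 ± 0.16 from Cre (adjusted p = 0.274) and 0.35 ± 0.16 from Grg3 (edgeR adjusted p = 0.297).

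Cacna1c had 13.1, 12.9 and 14.2 CPM in Grg3Grg4, 9.09, 10.3 and 6.71 CPM in Grg3, and 9.14, 12.9 and 13.8 CPM in Cre. Grg3Grg4 lay above Grg3 without overlap, by log2 0.62 ± 0.19 (edgeR adjusted p = 0.151; called by the Wald test of DESeq2 at 0.033), and Cre overlapped both. The differences from Cre were 0.17 ± 0.19 in Grg3Grg4 (adjusted p = 0.668) and -0.45 ± 0.19 in Grg3 (edgeR adjusted p = 0.224). The channel is also made in smooth muscle, whose 8 marker genes, led by Acta2 and Des, summed to 235 to 1005 CPM in Grg3Grg4, 327 to 1005 in Grg3 and 131 to 194 in Cre. None of those 8 was called, with median log2 differences from Cre of 1.67 in Grg3Grg4 and 1.75 in Grg3. The part of smooth muscle in the values of Cacna1c, Cacna1g, Cacna1h or any other member was not tested.

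Cacna1a, for the P/Q-type pore Cav2.1, was not called by edgeR in any comparison. It had 23.2, 18.7 and 29.8 CPM in Grg3Grg4, 24.5, 25.6 and 19.5 CPM in Grg3, and 21.4, 24.2 and 28.8 CPM in Cre. The groups overlapped in every comparison, with log2 differences of -0.05, -0.09 and 0.04 for Grg3Grg4 over Cre, Grg3 over Cre and Grg3Grg4 over Grg3 (SE 0.18 each; edgeR adjusted p = 0.899, 0.827 and 0.934).

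Cacna1b, for the N-type pore Cav2.2 of synaptic terminals, was low throughout. It had 1.89, 2.23 and 2.24 CPM in Grg3Grg4, 2.03, 2.87 and 1.74 CPM in Grg3, and 2.73, 2.77 and 4.36 CPM in Cre. Grg3Grg4 lay below Cre without overlap (log2 -0.63 ± 0.27, edgeR adjusted p = 0.222), and Grg3 overlapped both. The difference of Grg3 from Cre was -0.57 ± 0.26 (adjusted p = 0.281), and that between the mutant-labelled groups -0.06 ± 0.27 (edgeR adjusted p = 0.928).

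Cacna1e, for the R-type pore Cav2.3, was the lowest member and had the largest positive differences. It had 1.53, 1.78 and 1.20 CPM in Grg3Grg4, 1.35, 2.0 and 0.63 CPM in Grg3, and 0.40, 0.29 and 0.57 CPM in Cre. Both mutant-labelled groups lay above Cre, the lowest Grg3 library by little. The counts behind these values were 59 to 121, 31 to 146 and 14 to 26 reads per library. The differences from Cre were log2 1.84 ± 0.44 in Grg3Grg4 (adjusted p = 0.0636) and 1.66 ± 0.44 in Grg3 (adjusted p = 0.0934), neither called by edgeR. Without Grg3 replicate 3 both were called, at 1.84 (adjusted p = 0.0426) and 1.99 (adjusted p = 0.0465), and without Grg3 replicate 2 the Grg3Grg4 difference was (edgeR adjusted p = 0.0399). The Grg3Grg4 difference was also called with no filter (0.0308), with only the 6 libraries compared (0.0326), by voom (0.0347) and by the Wald test (adjusted p = 0.0033), and the Grg3 difference by the Wald test (0.0115).

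Abcc8 and Kcnj11 lie side by side on chromosome 7, at 46104523 to 46180033 and 46093953 to 46100764, with a gap of 3758 bases. Abcc8 was the most abundant member, at 82.1, 73.5 and 109 CPM in Grg3Grg4, 87.0, 96.3 and 90.3 CPM in Grg3, and 78.0, 100.01 and 108 CPM in Cre. The groups overlapped in every comparison. The differences were log2 -0.11 for Grg3Grg4 over Cre, -0.06 for Grg3 over Cre and -0.05 for Grg3Grg4 over Grg3 (SE 0.15 each; edgeR adjusted p = 0.731, 0.87 and 0.899).

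Kcnj11 had 19.2, 17.8 and 21.1 CPM in Grg3Grg4, 31.1, 25.5 and 23.8 CPM in Grg3, and 17.8, 21.5 and 20.1 CPM in Cre. Grg3 libraries lay above all libraries of both other groups, which overlapped. Grg3 differed from Cre by log2 0.44 ± 0.12 (adjusted p = 0.105) and Grg3Grg4 from Grg3 by -0.47 ± 0.12 (adjusted p = 0.119), with no call by edgeR. The Wald test of DESeq2 called both (adjusted p = 0.0277 and 0.0198). Grg3Grg4 differed from Cre by -0.03 ± 0.12 (edgeR adjusted p = 0.912). The ratio of Kcnj11 to Abcc8 per kb was 0.491 ± 0.057 in Grg3Grg4, 0.649 ± 0.118 in Grg3 and 0.462 ± 0.047 in Cre (SD, n = 3 each).

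**Figure D3:**
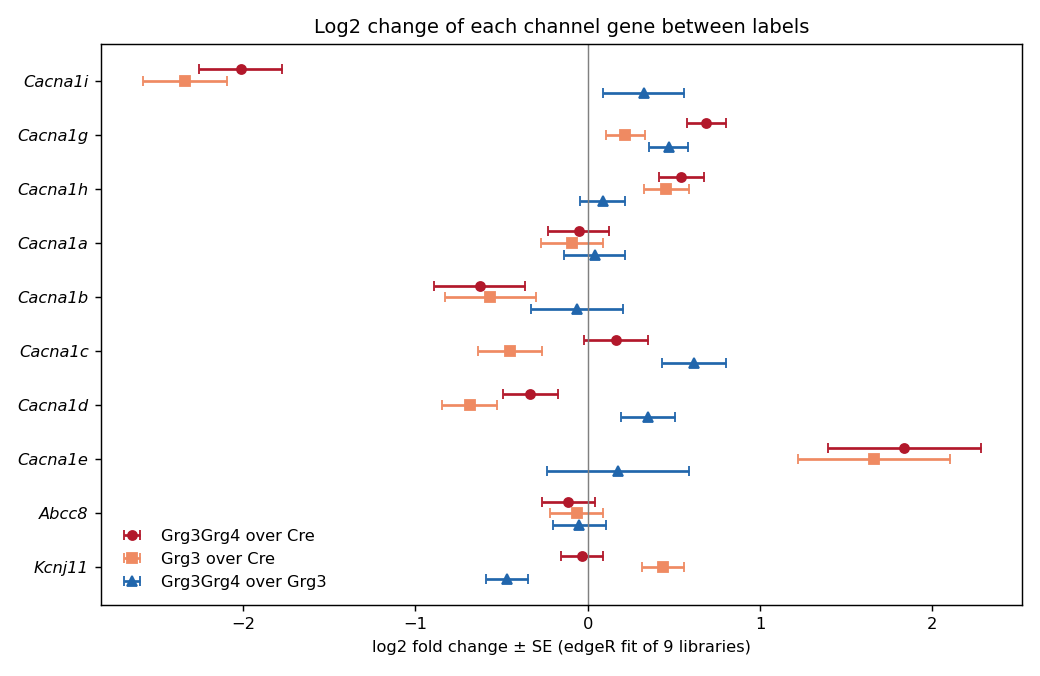
Log2 fold change with its SE (horizontal axis) of each channel gene (vertical axis) for Grg3Grg4 over Cre, Grg3 over Cre and Grg3Grg4 over Grg3, from 1 edgeR fit of 9 libraries. Cacna1i lies at -2.01 and -2.34 against Cre, Cacna1e at 1.84 and 1.66, and the other 8 between -0.68 and 0.69 in all comparisons.

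The members called were counted beside the share of all genes, without Cacna1i in the comparisons with Cre. In Grg3Grg4 over Cre, 1 of 9 was called (higher), against 2.14% of all 19166 genes tested. In Grg3 over Cre, 0 of 9 were called, against 1.4% of all genes, and in Grg3Grg4 over Grg3, 0 of 10, against 0.188%. At an unadjusted edgeR p under 0.05 the counts were 4 of 9, 5 of 9 and 3 of 10 members, beside 20.2%, 19.1% and 17.3% of all genes. The Wald test of DESeq2 called 3, 4 and 3 members in the same order, beside 8.16%, 8% and 5.81% of the genes it gave an adjusted p. Limma's voom with quality weights called 3, 0 and 0 members, beside 5.39%, 2.2% and 0.125% of all genes. Replicates did not overlap for 4 of 9 members in Grg3Grg4 over Cre (background 29.1% of genes), 4 of 9 in Grg3 over Cre (24.6%) and 4 of 10 in Grg3Grg4 over Grg3 (21.1%). The members' median log2 differences were -0.03, -0.06 and 0.13, and those of all genes 0.01, 0.02 and -0.00. The 2 comparisons with Cre share the same 3 Cre libraries.

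In Cre pancreas the level per length ran from Abcc8 at 11.8 ± 1.90 CPM per kb through Kcnj11 at 5.38 ± 0.49, Cacna1g at 3.49 ± 0.35, Cacna1h at 2.58 ± 0.38 and Cacna1a at 2.17 ± 0.33 (SD, n = 3). Cacna1i followed at 2.11 ± 0.76, then Cacna1d at 1.82 ± 0.38, Cacna1c at 0.564 ± 0.117, Cacna1b at 0.330 ± 0.093 and Cacna1e at 0.0167 ± 0.0056 CPM per kb. Compared within each library, the higher gene of each neighbouring pair was higher in 3 of 3 Cre libraries, except for Cacna1a over Cacna1i and Cacna1i over Cacna1d, each in 2 of 3. Those 2 pairs therefore did not differ beyond their spread, while Cacna1h over Cacna1a and Cacna1c over Cacna1b kept their order although their ranges over libraries overlapped. With the longest transcript as the length, Cacna1a stood above Cacna1h and Cacna1d above Cacna1i.

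The order in the mutant-labelled groups was near that in Cre. In Grg3Grg4 libraries Cacna1g averaged 5.62 ± 0.30 CPM per kb, in place 2, above Kcnj11 at 5.26 ± 0.45 in 3 of 3 libraries. Cacna1i was in place 8 in Grg3Grg4 at 0.523 ± 0.054 CPM per kb and in place 7 in Grg3 at 0.418 ± 0.075, where it was above Cacna1c in 2 of 3 libraries. The pore level was summed over the 8 member pores, without other pore genes such as Cacna1s. T-type genes made up 69.1% ± 2.27 of that sum in Grg3Grg4, 67.5% ± 2.23 in Grg3 and 62.5% ± 2.35 in Cre. These shares include Cacna1i, on which the set was selected, and are not tested. The L-type pair summed to 2.08 ± 0.18 CPM per kb in Grg3Grg4, 1.55 ± 0.07 in Grg3 and 2.39 ± 0.50 in Cre.

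**Figure D4:**
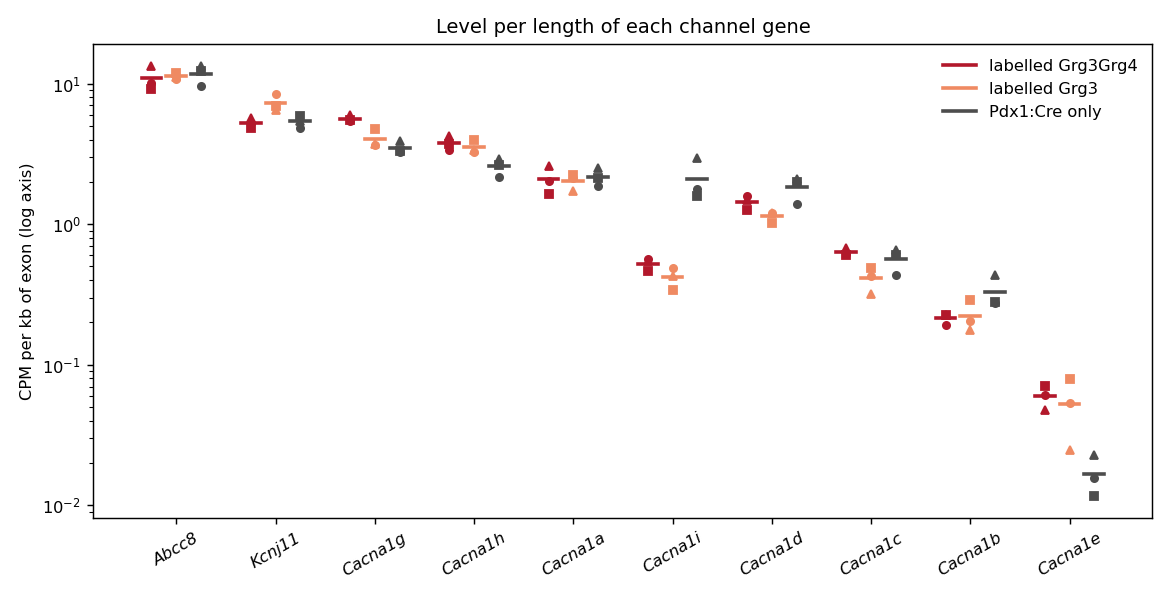
Level of each channel gene per length (vertical axis, CPM per kb of exon, log axis), ordered by the Cre mean (horizontal axis), with 1 point per library and a bar at the mean of each label. Abcc8 is highest in each group, and Cacna1i is the member whose mutant-labelled points lie farthest below its Cre points, at 0.523 and 0.418 against 2.11 CPM per kb.

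Bulk RNA does not show which cells of the organ held these transcripts, and in it fewer cells of a type and less RNA per cell cannot be told apart. The 12 beta cell markers, led by Ins2 and Ins1, summed to 1299 to 2773 CPM in Grg3Grg4, 2422 to 4365 in Grg3 and 4435 to 5181 in Cre. Of these 12, 6 were called lower in Grg3Grg4 (Glp1r, G6pc2, Mafa, Pdx1, Ins2 and Slc30a8) and 2 in Grg3 (Glp1r and G6pc2) over Cre. Marker calls here and in the next paragraph are those of the main fit, and how many hold in other settings is not given. The 14 pan-endocrine genes, led by Cpe and Chga, summed to 763 to 1310, 1164 to 1498 and 1655 to 1990 CPM, with 3 lower (Cpe, Scg2 and Scg5) in Grg3Grg4 and 0 called in Grg3. The 7 genes of other islet cells, led by Gcg and Sst, summed to 658 to 1330, 1209 to 1515 and 1289 to 1694 CPM, with 0 called. Beside these sums Abcc8 had 73.5 to 109, 87.0 to 96.3 and 78.0 to 108 CPM in the 3 groups. The part of endocrine content in the channel values was not tested.

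Neurons and Schwann cells also make several of these channels. Their 12 markers, led by Erbb3 and Stmn2, summed to 74.9 to 93.4 CPM in Grg3Grg4, 80.2 to 122 in Grg3 and 88.4 to 89.3 in Cre, with 0 called in any comparison. None of the 12 was at 0 in all libraries of a group. The 10 liver genes, led by Alb and Afp, summed to 541 to 1704, 82.9 to 1461 and 6.37 to 13.7 CPM, and 9 of 10 were higher in each mutant-labelled group over Cre. Of 10 stomach and intestine genes, led by Vil1 and Nkx6-3, 5 were tested and 1 (Nkx6-3) rose in Grg3Grg4 and 3 (Nkx6-3, Clca1 and Lgals4) in Grg3. Their sums were 41.3 to 45.1, 28.6 to 65.3 and 35.7 to 45.1 CPM. Across the marker lists, 1 gene (Clca1) was lower in Grg3Grg4 than in Grg3 and no other was called between those groups. The part of these tissues in the channel values was not tested.

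Genes around the channels were read from lists chosen with earlier results known. Of 18 other calcium channel subunit genes, 11 were tested, and 1 was called in Grg3Grg4 over Cre, Cacna2d2. It encodes an alpha2delta subunit, which brings pores to the cell surface. Cacna2d2 had 7.46, 7.50 and 6.49 CPM in Grg3Grg4, 4.11, 3.64 and 3.55 in Grg3, and 2.73, 1.84 and 1.30 in Cre, with no overlap between any 2 groups. It rose in Grg3Grg4 over Cre by log2 1.87 ± 0.25 (edgeR adjusted p = 0.0084), a call lost without Cre replicate 2 and with embryo sex as a term, while the difference of Grg3 from Cre was 0.94 ± 0.25 (adjusted p = 0.0904). The list's median log2 difference from Cre was 0.25 in Grg3Grg4 and 0.27 in Grg3.

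Subunit genes known from skeletal muscle were looked up after the muscle RNA in Grg3Grg4 replicate 2 had been seen. In that library Cacna1s, the L-type pore of skeletal muscle, had 4.09 CPM and Cacng1, its gamma subunit, 5.07 CPM, against at most 0.23 and 0.29 CPM in the other 8. Cacnb1, its beta subunit, had 15.5 CPM there and 4.32 to 7.12 CPM in the other 8 libraries. The vascular KATP channel genes Abcc9 and Kcnj8 averaged 62.7 ± 5.14 and 33.9 ± 4.34 CPM in Grg3Grg4, 74.2 ± 8.23 and 42.6 ± 9.66 in Grg3, and 67.8 ± 6.69 and 31.5 ± 3.35 in Cre, and 0 of 2 were called.

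Among 29 genes of calcium stores, pumps and sensors, all tested, 1 was called, Camk2b, the beta subunit of calcium/calmodulin-dependent kinase II. Camk2b had 34.5, 37.0 and 41.3 CPM in Grg3Grg4, 28.6, 31.2 and 30.0 in Grg3, and 49.4, 60.7 and 64.1 in Cre. Both mutant-labelled groups lay below Cre without overlap. It fell by 0.63 ± 0.11 on the log2 scale in Grg3Grg4 (adjusted p = 0.0218) and by 0.96 ± 0.11 in Grg3 (SE; edgeR adjusted p = 0.00505). The Grg3 call held in 18 of 18 alternatives and the Grg3Grg4 call in 13. The Grg3Grg4 call was lost with embryo sex as a term and without Cre replicate 2 or 3 or Grg3Grg4 replicate 1 or 2. The list's median log2 difference from Cre was 0.07 in Grg3Grg4 and 0.03 in Grg3.

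Of 29 other excitability channel genes, 28 were tested and 1 was called, Scn9a, the voltage-gated sodium pore Nav1.7. Scn9a had 1.12, 1.47 and 1.73 CPM in Grg3Grg4, 1.54, 1.39 and 1.14 in Grg3, and 2.90, 5.09 and 3.19 in Cre. Mutant-labelled libraries lay below all Cre libraries. It fell by 1.37 ± 0.28 on the log2 scale in Grg3Grg4 and by 1.46 ± 0.28 in Grg3 (SE; edgeR adjusted p = 0.04 each). These calls held in 8 and 9 of 18 alternatives. Embryo sex as a term ended both. Leaving out Cre replicate 2 or 3, Grg3 replicate 1 or 3, or Grg3Grg4 replicate 1 or 3 did so too. Leaving out Cre replicate 1 or Grg3Grg4 replicate 2 ended the Grg3Grg4 call, and leaving out Grg3 replicate 2 the Grg3 call.

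Of 21 genes of calcium-triggered exocytosis, all tested, 1 rose and 1 fell in Grg3Grg4 over Cre and 0 were called in Grg3. Vamp2, a granule SNARE, had 97.9, 112 and 118 CPM in Grg3Grg4, 94.1, 92.4 and 85.7 in Grg3, and 80.2, 70.2 and 71.3 in Cre. Sytl4 (granuphilin), which docks insulin granules, had 14.1, 11.7 and 20.997 CPM in Grg3Grg4, 22.9, 27.3 and 21.3 in Grg3, and 28.9, 33.4 and 38.4 in Cre. For both genes the 3 groups did not overlap, with Grg3 between Grg3Grg4 and Cre. Vamp2 rose by log2 0.57 ± 0.09 (adjusted p = 0.0188) and Sytl4 fell by 1.11 ± 0.20 on that scale (edgeR adjusted p = 0.0284). Both calls were lost without Cre replicate 2 or 3 or Grg3Grg4 replicate 2 and with embryo sex as a term, and that of Sytl4 also without Cre replicate 1 or Grg3Grg4 replicate 1. No gene of these 5 lists was called in Grg3Grg4 over Grg3. The exocytosis list's median log2 difference from Cre was -0.41 in Grg3Grg4 and -0.16 in Grg3.

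**Figure D5:**
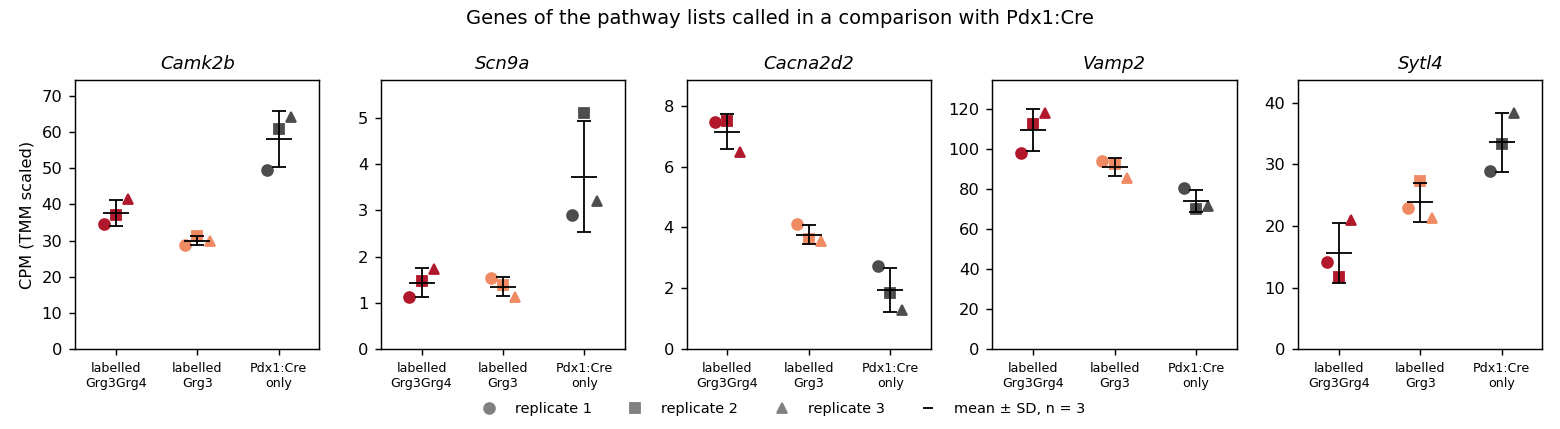
CPM after TMM scaling (vertical axes, from 0) in each library of the 5 genes of the pathway lists that were called against Cre, by label (horizontal axes); points are libraries and bars are mean ± SD, n = 3. Cacna2d2 and Vamp2 are highest and Sytl4 is lowest in Grg3Grg4, and Camk2b and Scn9a are lower in both mutant-labelled groups than in Cre.

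The genes whose profile was nearest to Cacna1i were sought among 14738 genes with a mean of at least 1 CPM, by the root mean square distance of centred log2 CPM over 9 libraries. They were Prss3, a trypsinogen, at a distance of 0.362, then Rpl34-ps1, Tmed11, Hsd17b13 and Reg3d, at up to 0.391, against a median distance of 1.06. Prss3, Rpl34-ps1 and Reg3d lie on chromosome 6, and Tmed11 and Hsd17b13 on chromosome 5. The part of strain background in their values was not tested. Prss3 averaged 1065 ± 127 CPM in Grg3Grg4, 1205 ± 453 in Grg3 and 5782 ± 583 in Cre. In the same order of groups, Rpl34-ps1, a processed pseudogene, averaged 11.4 ± 2.10, 14.7 ± 2.71 and 54.0 ± 4.73 CPM. Tmed11 averaged 18.1 ± 4.41, 19.0 ± 7.90 and 69.2 ± 5.39 CPM, and Hsd17b13 33.4 ± 9.03, 29.8 ± 10.9 and 105 ± 28.0 CPM. Reg3d, of the Reg family of secreted pancreatic proteins, averaged 9.98 ± 0.74, 11.8 ± 4.05 and 37.6 ± 1.52 CPM. Likeness to a gene chosen for its low mutant-labelled level picks genes with that level, so their direction is not separate support. The profile of Abcc8 was nearest to those of Gramd1c (0.0828), Ccdc171, Myh14, Mdm1 and Golm1, against a median distance of 0.267. Profiles were not scaled, so a gene that varies little lies near others that vary little, and nearness does not show co-expression.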

How the data were processed

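The authors deposited raw read counts per gene symbol, 1 file per library; per the submitters' processing notes, HISAT2, HTSeq, Trim Galore, FastQC, bedtools and DESeq2 were used with builds mm10 and GRCm38, without stated roles. The sources used here give neither the annotation nor the strand setting. The 5 rows naming no gene, 28.5% to 33.2% of reads, were left out. Counts were tested with edgeR 4.0.16 (R 4.3.3; quasi-likelihood F test, TMM, filterByExpr with minimum count 10 and total 15), 9 libraries in 1 fit, 2-sided, Benjamini-Hochberg over 19166 genes. The SE is the log2 difference over the square root of F. Lengths and positions came from GENCODE M21 (GRCm38), which may differ from the authors' annotation. Replicates differed by more than counting noise.

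The members and lists were chosen with earlier results of these data known. Named were the members, Tle3, Tle4, called genes of the pathway lists (at most 4 of smallest p), the 5 profiles nearest to Cacna1i and to Abcc8 (prior count 2) and the 2 most abundant genes of each marker list; others were named after their values were seen. On simulated data the fit recovered 66% of 2-fold and 98% of 4-fold changes for Grg3Grg4 over Cre, 64% and 96% for Grg3 over Cre, and 79% and 93% for Grg3Grg4 over Grg3, with 14, 16 and 11 unchanged genes called in that order. Changes were planted only in genes with a mean of at least 1 CPM in the group compared against. That leaves out Cacna1e in the comparisons with Cre, where it averaged 0.42 CPM. Folds below 2 were not simulated, so the rates do not cover smaller differences. Alternatives used DESeq2 1.42.0 and limma 3.58.1. Figures were drawn with matplotlib.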

Additional observations from a re-analysis of the deposited data

How the results depend on the processing

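Both the counts of called genes and the counts of members called depended on the setting. Grg3Grg4 over Cre gave 410 genes, but 930 with no filter, 254 with the replicate block, 30 with embryo sex as a term, 750 with only the 6 libraries compared, 1553 by the Wald test of DESeq2, 1033 by voom, and 50 to 825 with 1 library left out. Grg3 over Cre gave 268, but 586 with no filter, 167 with the replicate block, 169 with sex, 1463 by Wald, 421 by voom, and 32 to 327 with 1 library left out. Grg3Grg4 over Grg3 gave 36, but 56 with abundant genes left out, 228 with no filter, 75 with a strict filter, 11 with the replicate block, 4 with sex, 10 with only the 6 libraries, 1019 by Wald, and 6 to 49 with 1 library left out. Replicate numbers did not pair the libraries (correlations of -0.09 to 0.09), and the replicate block changed no count of members called; it ended the calls of Scn9a in both comparisons with Cre.

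Members called in Grg3Grg4 over Cre numbered 1, but 3 with no filter, 0 with sex, 2 with only the 6 libraries, 3 by Wald, 3 by voom and 0 to 3 with 1 library left out. In Grg3 over Cre they numbered 0, but 1 with no filter, 4 by Wald and 0 to 1 with 1 library left out. In Grg3Grg4 over Grg3 they numbered 0, but 3 by Wald and 0 to 1 with 1 library left out.

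Directions turned only for differences near 0. With sex as a term, log2 was 0.0117 for Cacna1a and 0.0672 for Abcc8 in Grg3Grg4 over Cre, and 0.13 for Cacna1b and 0.12 for Abcc8 in Grg3Grg4 over Grg3. By voom, Cacna1b was at 0.038 there. With 1 library left out, Cacna1a ran from -0.24 to 0.10 (Grg3Grg4 over Cre), -0.19 to 0.0281 (Grg3 over Cre) and -0.15 to 0.19 (Grg3Grg4 over Grg3). Abcc8 ran from -0.29 to 0.00217, -0.19 to 0.0347 and -0.23 to 0.0651 in the same order. Kcnj11 ran from -0.10 to 0.0285 in Grg3Grg4 over Cre. In Grg3Grg4 over Grg3, Cacna1h ran from -0.00399 to 0.18, Cacna1b from -0.21 to 0.17 and Cacna1e from -0.16 to 0.60. The cause of these changes was not tested. Sex and the Grg3Grg4 label are largely confounded, since all 3 of its libraries are male, and 3 libraries a group and the low counts of Cacna1e limit the precision.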

Other observations

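The neighbours of Cacna1i on chromosome 15 were read after its values were seen. The 5 nearest tested protein-coding genes on each side were Tab1, Mgat3, Mief1, Atf4 and Rps19bp1 before it and Grap2, Fam83f, Tnrc6b, Adsl and Sgsm3 after it. None of the 10 was called by edgeR in any comparison. The lowest adjusted p was that of Tab1, which averaged 27.9 ± 2.10 CPM in Grg3Grg4, 28.0 ± 3.11 in Grg3 and 20.99 ± 0.83 in Cre (SD, n = 3 each; adjusted p = 0.0666 and 0.0752 over Cre).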
